A study of Homo sapiens with 4 samples.

Results

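Enzymes of lower glycolysis and a pair of enzymes that set its pace were described as 1 group: PFKFB3, PFKFB4, TPI1, PGK1, PGAM1 and ENO1. These 6 genes were taken by symbol from the 684 genes of the authors' deposited gene table, where all 6 had a row, and from the 1040 transcripts of the authors' deposited transcript table, where 0 had one. They were chosen because their values in that gene table were known to go the same way, so the values below are a description and carry no test. The libraries came from LP-1, an established human multiple myeloma cell line that the labels class as B lymphoblast, and myeloma is a cancer of plasma cells. One group of 2 libraries was labelled HRP2 knockdown, made with a lentiviral guide RNA against HRP2, and the other group of 2 was labelled non-target control, carrying a lentiviral guide RNA without that target. HRP2, a reader of chromatin marks, is the product of HDGFL2. The series title places it with MINA in t(4;14) myeloma treated with proteasome inhibitors. The labels do not say whether the guide served to edit or to repress the gene, whether each population was a clone or a pool, or whether the libraries of a group were separate cultures. The Q values may therefore measure technical spread alone.

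For each gene, the table gives the log2 of the ratio of knockdown to control (its log2 fold change) and a Q value, which is a p-value corrected for the number of genes tested. A standard error is not part of it, and values for single libraries were not used here. The spread within a group and the sequencing depth are thus unknown, and no fold change below has an SD. Every gene of the table had a Q value under 0.05 (largest 0.0495, authors' deposited table), and genes outside it have no value here. HDGFL2 was lower in the knockdown, with 0.388 of the control level remaining (Q = 2.99e-13 and log2 fold change -1.37, authors' deposited table). Of 6 plasma cell markers, 3 were in the authors' deposited table, all lower with log2 fold changes between -0.63 and -0.45 (IRF4, SDC1 and TNFRSF17), and of 10 markers of T and NK, myeloid, erythroid and stromal cells 0 were. Their levels are not known, so the cell type could not be checked, and the part of the plasma cell markers in the results below was not tested. In bulk RNA, fewer cells of a type and less RNA per cell cannot be told apart.

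Glycolysis splits glucose into pyruvate in the cytosol, spending ATP in its upper reactions and recovering it in the lower ones. Its pace is set largely at phosphofructokinase, which is activated by fructose-2,6-bisphosphate. That activator is made and broken down by the bifunctional enzymes of the PFKFB family, each of which has a kinase domain and a bisphosphatase domain. PFKFB3 has far more kinase than bisphosphatase activity, and PFKFB3 and PFKFB4 are both known as genes induced by low oxygen. TPI1 interconverts the triose phosphates, PGK1 makes ATP from 1,3-bisphosphoglycerate, PGAM1 moves the phosphate of phosphoglycerate, and ENO1 makes phosphoenolpyruvate. Genes for these enzymes are among the classic targets of the hypoxia-inducible factors and are abundantly expressed in most dividing cells.

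Because PFKFB3 and PFKFB4 are paralogues, their sequences are shown first, as the stretch where reads of one could be taken for the other. Their longest coding sequences in GENCODE 29 (1707 and 1410 nucleotides) aligned with 60.6% identity. The longest identical run was 34 nucleotides, near the start of the coding sequence in the kinase domain (nucleotides 137 to 170 of PFKFB3 and 149 to 182 of PFKFB4, counted from the A of the start codon). It is in capitals below, with 10 nucleotides of each gene on either side.
PFKFB3: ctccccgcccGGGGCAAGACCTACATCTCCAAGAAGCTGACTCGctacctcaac
PFKFB4: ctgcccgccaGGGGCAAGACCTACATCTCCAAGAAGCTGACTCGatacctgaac
No other run reached this length in the coding sequences. Of the 31-nucleotide words in the longest protein-coding transcript, 0.0890% for PFKFB3 and 0.112% for PFKFB4 occurred in any transcript of another gene, so the values of these paralogues rest almost wholly on sequence of their own.

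The PFKFB regulators had the largest increases of the group. PFKFB4 (gene ID 5210, chromosome 3) was raised to 4.11 times the control level, a log2 change of 2.04 with Q = 5.1e-09 in the authors' deposited table. That made it the 8th highest fold change and the 13th lowest Q value of the 684 genes in the authors' deposited table. PFKFB3 (gene ID 5209, chromosome 10) was raised to 2.30 times the control level, a log2 change of 1.20 with Q = 0.00104 in the authors' deposited table. It ranked 26th by fold change and 100th by Q value there. On chromosome 10, which also holds PGAM1, 24 of 28 genes of the authors' deposited table were higher (85.7%), and 22 of 26 without these members. Over all chromosomes the share was 52.8%. It was 64.3% on chromosome 1 (ENO1), 48.7% on chromosome 3 (PFKFB4), 46.4% on chromosome 12 (TPI1) and 30.8% on chromosome X (PGK1). The part of the chromosome in the values of the members was not tested. The log2 fold change of PFKFB4 exceeded that of PFKFB3 by 0.84 in the authors' deposited table, a ratio of 1.79 between the 2 fold changes. Without a standard error for either, whether the paralogues differed in their increase could not be tested.

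**Figure D1:**
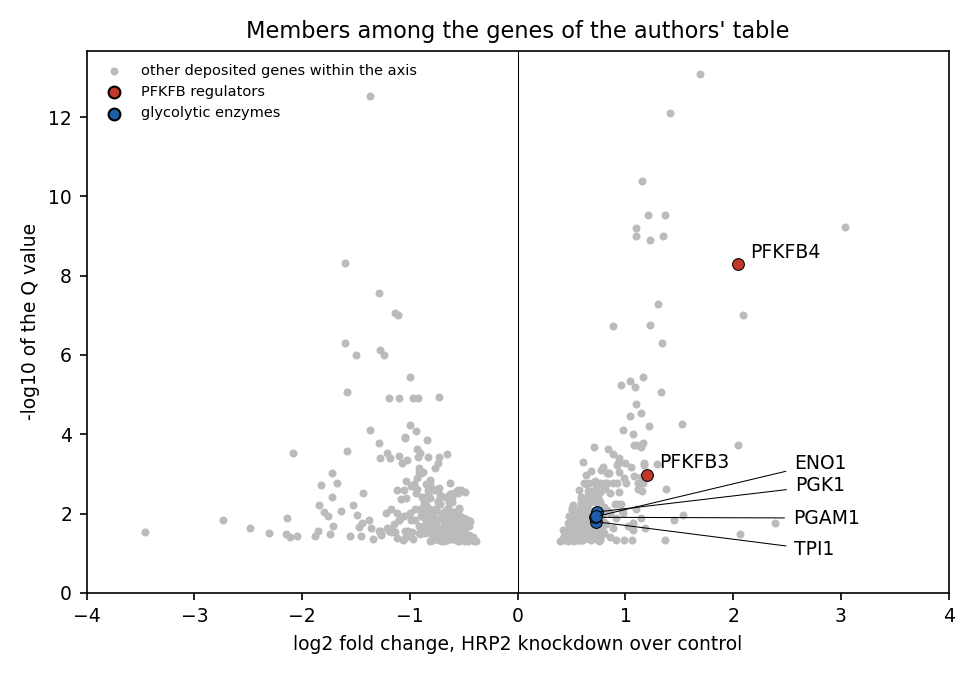
Each point is a gene of the authors' deposited table, with its log2 fold change of HRP2 knockdown over control on the x axis and the -log10 of its Q value on the y axis. Red points are the PFKFB regulators and blue points the enzymes, and the x axis ends at 4 either way, which leaves out 7 of 684 genes. PFKFB4 lies apart at 2.04, while TPI1, PGK1, PGAM1 and ENO1 lie together at 0.72 to 0.73.

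The enzyme genes rose by less and by nearly equal amounts. TPI1 (gene ID 7167, chromosome 12), the triosephosphate isomerase, lay at 0.73 on the log2 scale (1.66 times the control level, Q = 0.0161) in the authors' deposited table. PGK1 (gene ID 5230, chromosome X), the first ATP-yielding step, lay at 0.73 on the log2 scale (1.66 times, Q = 0.00916) in the authors' deposited table. PGAM1 (gene ID 5223, chromosome 10), the phosphoglycerate mutase, lay at 0.72 on the log2 scale (1.64 times, Q = 0.0124) in the authors' deposited table. ENO1 (gene ID 2023, chromosome 1), the enolase of most tissues, lay at 0.73 on the log2 scale (1.66 times, Q = 0.0119) in the authors' deposited table. From PGAM1 to PGK1 the log2 fold changes spanned 0.018, so the 4 enzymes cannot be ordered. They ranked between 124th and 141st of the 361 higher genes in the authors' deposited table, a little above the median of those genes (log2 fold change 0.66).

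Other genes had values in the same narrow range. The interval from PGAM1 to PGK1 held 14 further genes of the authors' deposited table. Whether it is unusual for 4 genes to lie so close was not tested. Closest to the median of the 4 enzymes were SLC25A17, CAV2, PON2, RRP9, CCDC86 and GALNT18, all at log2 fold changes that round to 0.73 in the authors' deposited table. Among the 14 genes, Q values ran from 0.00155 to 0.0375 in the authors' deposited table, 6 below those of all 4 enzymes, 2 among them and 6 above them.

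**Figure D2:**
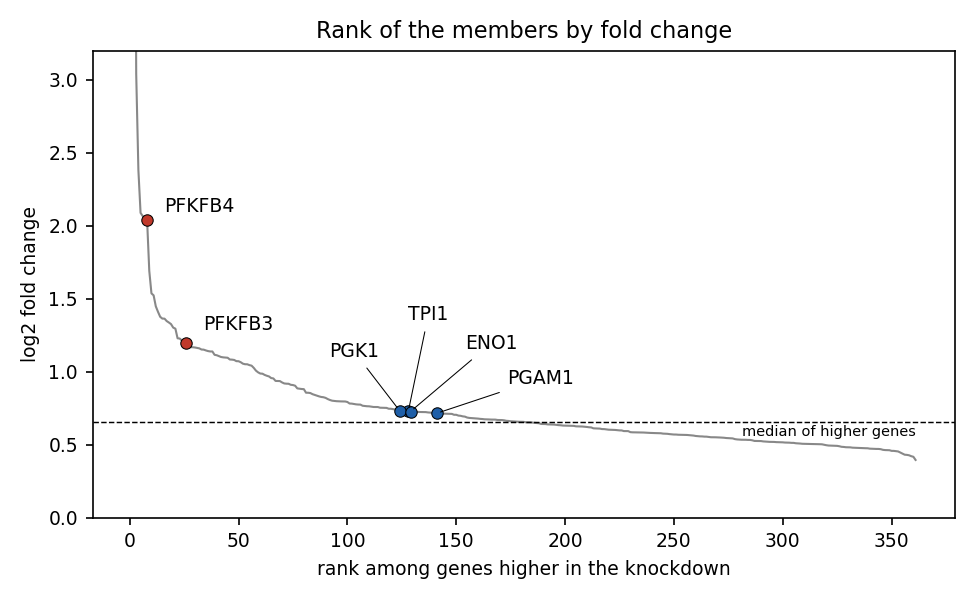
The grey line gives the log2 fold change (y axis) of each of the 361 genes higher in the knockdown, in order of rank (x axis), with 2 genes above the end of the axis, and the dashed line is their median of 0.66. PFKFB4 and PFKFB3 sit on the steep part of the curve at ranks 8 and 26, and the 4 enzymes on the flat part at ranks 124 to 141.

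All 6 genes had positive values (median 0.73 on the log2 scale), where 52.8% of all genes in the authors' deposited table were higher and the median over all of them was 0.47. The members were chosen from this contrast, so nothing is read from that count. PFKFB3 and PFKFB4 were the 2 members with a log2 fold change of at least 1, a size that 8.48% of the genes in the authors' deposited table reached in the higher direction. PFKFB3, PFKFB4 and PGK1 were the 3 members with a Q value under 0.01, as were 37.3% of all genes in the authors' deposited table.

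By step of the pathway, the glycolytic enzymes in the authors' deposited table were the triosephosphate isomerase and the enzymes from phosphoglycerate kinase to enolase. Of 11 steps from hexokinase to lactate dehydrogenase, with 29 genes, 4 steps had a gene in the table and 7 had none. The 4 genes were members, chosen from the table, so nothing is read from which steps they cover. The other 25 genes of these steps had 0 in the table, against 2.81% of the mRNA genes that the authors listed. Triosephosphate isomerase, phosphoglycerate kinase, phosphoglycerate mutase and enolase each had 1 gene. Hexokinase (5 genes), glucose-6-phosphate isomerase (1), phosphofructokinase (3) and aldolase (3), the reactions upstream of TPI1, had 0. Glyceraldehyde-3-phosphate dehydrogenase, which acts between TPI1 and PGK1, also had 0 of 2 genes in the table. The remaining isoenzymes of the 4 covered steps, 6 genes such as PGK2, PGAM2, ENO2 and ENO3, were outside the table, as were PFKFB1, PFKFB2 and TIGAR, which degrades fructose-2,6-bisphosphate. A gene outside the table is not shown to be unchanged.

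The last steps had no gene in the gene table and 3 transcripts in the transcript table. LDHA, the main lactate dehydrogenase subunit of glycolytic cells, had 2 transcripts there, whose log2 fold changes were 1.07 (Q = 0.0285) and 9.10 (Q = 0.00253) in the authors' deposited table of transcripts. PKM, which makes pyruvate, had 1 transcript at 8.76 (Q = 0.0113) in the same authors' deposited table. Of all transcripts listed there, 51.0% were higher, and 79.1% had an absolute log2 fold change of 6 or more. Values of that size were thus common there, and the transcript levels behind them are not known. Since no gene value is given for LDHA or PKM and no transcript value for the 6 members, gene and transcript values could not be set side by side for any of these genes.

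Genes of the branches that leave or feed glycolysis were mostly higher where they were in the authors' deposited table. The lists, written with earlier results of these data known, held 123 genes, of which 15 were in the table (14 higher and 1 lower), including the 6 members. Without the members, 9 of 117 genes (7.69%) were in the table, 8 higher and 1 lower, and their median was 0.71 on the log2 scale in the authors' deposited table. Of all genes in that table, 52.8% were higher. For comparison, the table held 2.81% of the 24237 mRNA genes that the authors listed, 1.49% as higher and 1.32% as lower. The listed genes include ones that LP-1 cells may not express, so these shares are not those of expressed genes. Since the lists were written with earlier results of these data known, nothing is read from the counts or the shares.

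GPD2 is the mitochondrial glycerol-3-phosphate dehydrogenase of the shuttle that oxidises cytosolic NADH. Among the genes of these lists other than the members it had the largest log2 fold change, 1.33 (Q = 8.77e-06, authors' deposited table). GPD1L, a relative of its cytosolic partner, lay at 0.72 (Q = 0.0145) in the authors' deposited table. On the glycogen list GBE1, the branching enzyme, lay at 1.03 (Q = 0.0208) and PYGL, a glycogen phosphorylase, at 0.75 (Q = 0.0452) in the authors' deposited table. In the non-oxidative pentose phosphate pathway the isomerase RPIA lay at 0.71 (Q = 0.0221) and the epimerase RPE at 0.60 (Q = 0.0124) in the authors' deposited table. H6PD, which runs the oxidative pentose phosphate reactions inside the endoplasmic reticulum, was the 1 lower gene, at -1.03 (Q = 0.00153) in the authors' deposited table. Of 14 genes that take pyruvate to acetyl-CoA, DLAT and PDHB, subunits of pyruvate dehydrogenase, lay at 0.58 (Q = 0.0197) and 0.53 (Q = 0.0420) in the authors' deposited table.

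The 13 glucose and lactate transporters and their partners had 0 genes in the authors' deposited table, and so had the 9 gluconeogenesis genes. The 21 regulators of glycolytic genes, with HIF1A, ARNT, EGLN3, MYC and TXNIP among them, also had 0. For comparison, 2.81% of the 24237 mRNA genes that the authors listed were in that table. A gene outside it is not shown to be unchanged. G6PC3, ARNT and HIF1AN each had a transcript in the authors' deposited table of transcripts.

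**Figure D3:**
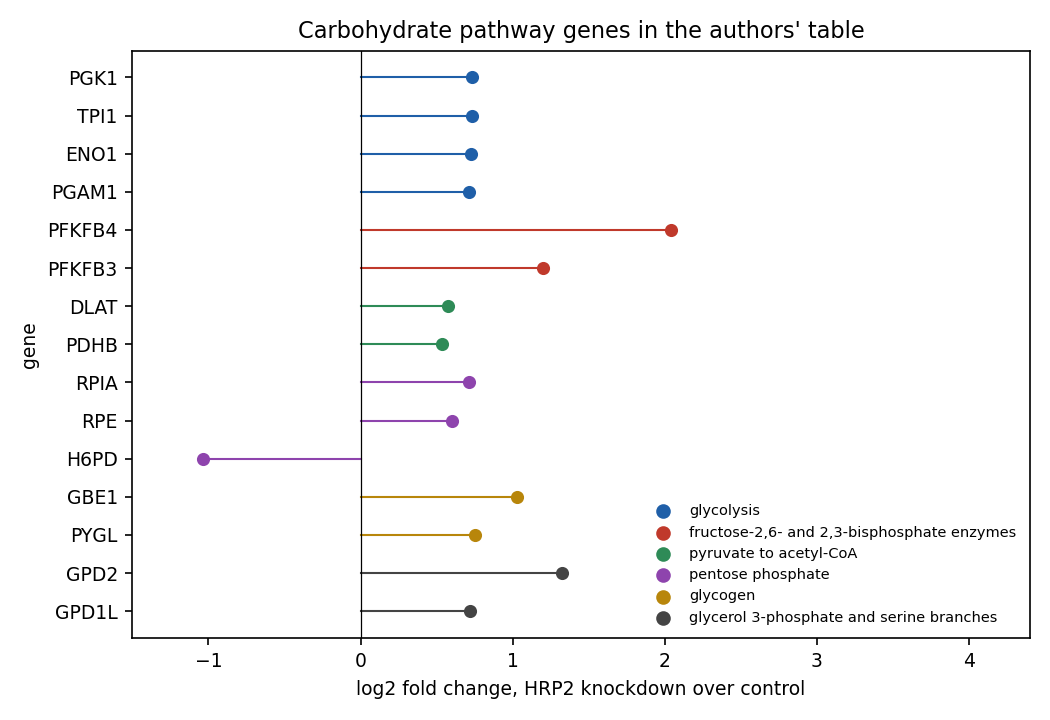
Each line ends at the log2 fold change (x axis) of 1 gene of the carbohydrate lists that is in the authors' deposited table, coloured by list. The 15 genes run from H6PD at -1.03, the 1 lower gene, to PFKFB4 at 2.04.

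The members differed in base composition, which went with direction in the whole table. Transcript GC content, a median over the protein-coding transcripts of a gene in GENCODE 29, was 43.3% for PGK1, 51.8% for ENO1, 52.8% for PGAM1, 56.6% for TPI1, 56.8% for PFKFB4 and 58.7% for PFKFB3. Of the 677 genes with a value, those in the lowest quartile were higher in 75.3% of cases and those in the highest quartile in 14.8%. PGK1 fell in the lowest quartile. PFKFB4, TPI1, PGAM1 and ENO1 fell in the third quartile, where 47.3% of genes were higher and the median log2 fold change was -0.52 in the authors' deposited table. PFKFB3 fell in the highest quartile, where it had the 3rd highest log2 fold change of 169 genes and was 1 of 25 that were higher in the authors' deposited table. The members were chosen as higher, so nothing is read from the quartiles they fell in. The part of base composition in their values was not tested.

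**Figure D4:**
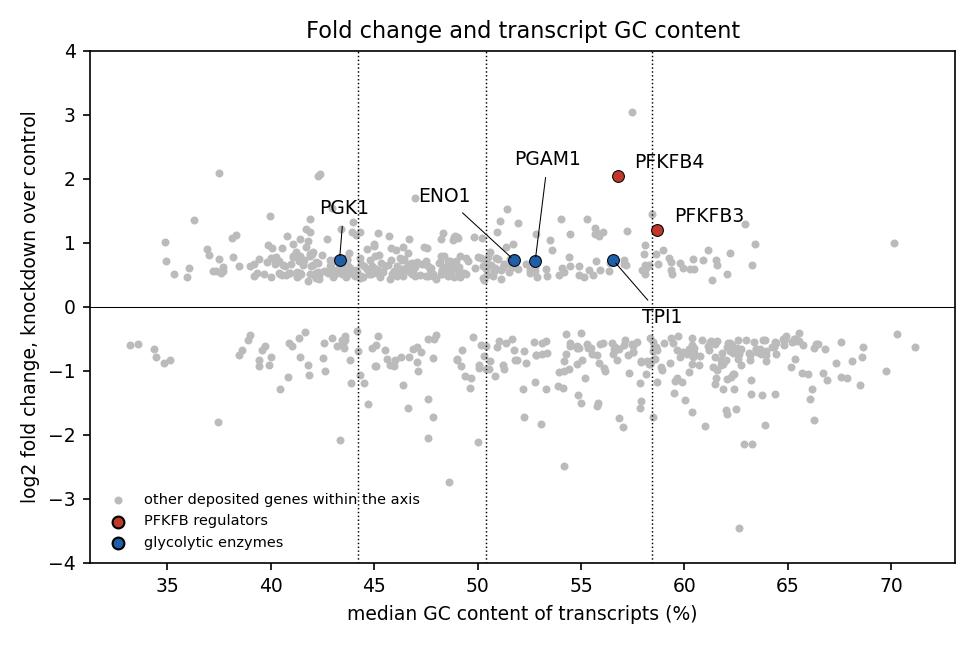
Each point is a gene of the authors' deposited table, with the median GC content of its transcripts in percent on the x axis and its log2 fold change on the y axis, which ends at 4 either way. Dotted lines mark the quartiles of GC content, and PFKFB4 and PFKFB3 have the 4th and 3rd highest values of the third and the fourth quartile.

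The members differed in how far their reads can be told from those of other genes. In PGAM1, 49.2% of the 31-nucleotide words of the longest transcript occurred in other genes, just under the limit of 50% used here to call a gene shared. Its closest copies were processed pseudogenes (39.1% for the nearest) and PGAM4 (24.8%), an intronless copy whose coding sequence is 98.3% identical to that of PGAM1. In TPI1 the share was 28.3%, nearly all of it (25.9%) in the pseudogene TPI1P1. For PGK1 it was 12.9%. For ENO1 it was 10.9%, with 9.72% of its words found in transcripts of the protein-coding gene EDARADD and 8.55% in the pseudogene ENO1P1. The value of PGAM1, and to a lesser degree that of TPI1, is uncertain for this reason, since how the authors assigned reads with several matches is not given in the sources used here.

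Promoter sequences are shown because hypoxia-inducible factors bind a short core word, ACGTG or GCGTG. RefSeq windows of 300 bases (250 before to 50 after an annotated start, build GRCh38.p14) were matched by gene ID for 6 of 6 members, with 8 windows in all, since PFKFB3 and TPI1 have 2 starts each. Both strands were searched, and CACGTG, read the same way on both strands, counts as 2 matches of ACGTG. At least 1 ACGTG was found for 3 of 6 members (PFKFB3, TPI1 and PGK1), against 28.8% of the 15514 listed mRNA genes with a window, 36.6% of the higher genes and 32.8% of the lower genes. Either word was found for 5 of 6 members, PGAM1 being the exception, against 62.3% of listed mRNA genes, 75.9% of higher genes and 73.0% of lower genes. Either word is thus common in promoters of this length, among lower genes as well. A match is a description of the letters and not a binding site.

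PGK1 had the most matches in 1 window, with 3 copies of ACGTG, besides a single GCGTG, and 2.42% of the windows of listed mRNA genes hold 3 or more ACGTG. That window was picked as the highest of 8, so nothing is read from this share. The stretches below are written 5′ to 3′ on the strand of the gene, with the matches of both words (on either strand) in capitals, and are trimmed to the longest part outside exons of the gene in GENCODE 29. They show how differently the words are placed. In PGK1 they form a group far upstream, apart from 1 ACGTG after the start that is not printed. The stretch of PFKFB3 holds the palindrome at its inner start and that of PFKFB4 a single word. In TPI1 both words lie close to the inner start.
PGK1, chrX:78103998-78104173, plus strand: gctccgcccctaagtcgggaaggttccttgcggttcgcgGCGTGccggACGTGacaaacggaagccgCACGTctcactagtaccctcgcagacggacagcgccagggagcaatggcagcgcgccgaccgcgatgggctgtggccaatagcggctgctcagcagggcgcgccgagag
PFKFB3, chr10:6202682-6202865, plus strand: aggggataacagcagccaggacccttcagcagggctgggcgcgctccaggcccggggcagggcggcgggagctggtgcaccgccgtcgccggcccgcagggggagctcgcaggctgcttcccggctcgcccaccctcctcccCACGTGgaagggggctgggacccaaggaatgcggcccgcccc
PFKFB4, chr3:48556924-48556982, minus strand: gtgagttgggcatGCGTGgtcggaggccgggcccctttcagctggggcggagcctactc
TPI1, chr12:6867855-6868099, plus strand: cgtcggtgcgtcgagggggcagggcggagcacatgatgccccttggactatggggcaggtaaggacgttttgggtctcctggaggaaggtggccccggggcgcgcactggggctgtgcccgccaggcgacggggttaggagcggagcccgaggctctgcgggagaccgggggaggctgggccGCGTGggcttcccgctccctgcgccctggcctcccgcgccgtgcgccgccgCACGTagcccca
In PGK1 the ACGTG matches begin at -202 and -183 before the start and at 29 after it, and GCGTG begins at -211. The palindrome of PFKFB3 begins at -108 from a start that lies 58011 bases inside the gene, while the window at its outer start holds 1 GCGTG. That word begins at -166 in PFKFB4, from a start that lies 6333 bases inside the gene, at -68 in TPI1, and at -166 and -72 in ENO1, where the 250 bases before the start lie wholly in exons of longer GENCODE transcripts and are not printed. For PGAM1 the start in the RefSeq table lies 1627 bases inside the gene. The 250 bases before it also lie wholly in exons of the gene, so the lack of a match concerns that window alone. This window also stood apart in composition, with 53.3% GC and 5 CpG dinucleotides, where the other 7 windows of the members held 24 to 42 and the median window of listed mRNA genes 21. The word TATAAA was found in 0 of 8 windows (9.44% of the windows of listed mRNA genes). CCAAT was found in that of PGK1 alone (1 of 6 members, against 42.3% of listed mRNA genes), as was GAANNTTC, a pair of heat shock element units in which N is any base (7.39% of listed mRNA genes).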

How the data were processed

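The 4 libraries, 2 of HRP2 knockdown and 2 of control LP-1 cells, were prepared by BGI protocols after Trizol extraction (labels). BWA, Bowtie2, RSEM and hg19 are named in the submitters' processing notes, with no role. Tool versions, annotation, library normalization and the test that gave the Q values: not given in the sources used here. The log2 fold changes and the Q values (corrected p-values) are as deposited by the authors, per the file headers; the direction was read from the title stems of the groups. One deposited table lists 210503 gene names by RNA type and carries no score or other number.

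The planned tests on counts were not run, since no value per library was used. The authors' values were ranked, counted and set beside those of all deposited genes, with Python 3.11.15 and pandas 2.3.3. The members and lists were chosen with earlier results of these data known. Genes were named by a fixed rule: the members, HDGFL2, listed genes in the table and the 6 deposited genes nearest to the enzymes. Other genes, namely the plasma cell markers and genes named as absent, were chosen from the lists. GC content and shared words used GENCODE 29 transcripts, and promoter windows are RefSeq's. The word search was tested on simulated sequences. A comparison of protein sequences was planned and not run.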

Additional observations from a re-analysis of the deposited data

How the results depend on the processing

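All 6 members were higher. The largest share of words in other genes was 49.2% (PGAM1), so the limit of 50% removed no member and left all 6. At a limit of 25%, an alternative chosen after seeing the data, 4 of 4 were higher. The members were chosen as higher, so both counts were fixed in advance. With a Q value under 0.01 the members were 3, with a log2 fold change of 1 or more in size they were 2, and 0 had a row among the transcripts; the first 2 counts fall by construction, as fewer genes are left, and each remaining member was higher. The 15 pathway genes became 5 under either limit, 4 of them higher each time. The share of higher genes, 52.8% in all, was 75.3%, 47.3% and 14.8% in GC quartiles 1, 3 and 4; the cause was not tested. Members with ACGTG were 3 with or without the 50 bases after the start, and 5 with ACGTG or GCGTG. The median of the members from the transcript table could not be computed, as it holds no member. No paired analysis was possible because the tables carry no value per library; leaving out a replicate, other size factors and low-count filters were not run for the same reason. Depth is unknown.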

Other observations

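In the authors' deposited table of transcripts, 6 transcripts from 5 genes of the carbohydrate lists were present and all 6 were higher. Of all transcripts there, 51.0% were higher, and 79.1% had an absolute log2 fold change of 6 or more. Besides those of LDHA and PKM, they were 1 transcript each of G6PC3, a ubiquitous glucose-6-phosphatase, at a log2 fold change of 9.60 (Q = 0.000177), of ARNT, the partner of the hypoxia-inducible factors, at 9.54 (Q = 0.000372), and of HIF1AN, which hydroxylates HIF1A, at 8.98 (Q = 0.00388), all in the authors' deposited table. None of these 5 genes was in the authors' deposited gene table. Of the 6 transcripts, 5 lay between 8.76 and 9.60, and 1 transcript of LDHA lay at 1.07 in the authors' deposited table.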
